A study of Rattus norvegicus with 287 samples.

Results

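The Reg genes encode small secreted proteins built around a C-type lectin fold. The 4 members described here are Reg1a (ENSRNOG00000006486), Reg3a (ENSRNOG00000006360), Reg3b (ENSRNOG00000006151) and Reg3g (ENSRNOG00000006579), each taken from the deposited gene counts by its symbol, 4 of 32623 genes. They were followed in the 20 pancreas and 29 intestine libraries of a series of 287. Reg1a is the acinar protein also known as lithostathine or pancreatic stone protein. Reg3b, or pancreatitis-associated protein, is secreted by acinar cells in acute pancreatitis and by gut epithelium, where it acts against bacteria. Reg3g binds the peptidoglycan of Gram-positive bacteria and helps to keep bacteria away from the epithelium of the small intestine, and Reg3a is the rat paralogue called pancreatitis-associated protein 2. Transcription of the Reg3 genes is known to respond to interleukin 22 and interleukin 6 through STAT3 and to contact with microbes.

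In both treatments the rats were under isoflurane. They were given peripheral focused ultrasound (pFUS) with the porta hepatis, where vessels and nerves enter the liver, as its target, or a sham procedure as control. Ultrasound was given for 3 minutes per day at 1.1 MHz, and all the pancreas and intestine libraries come from the 7-week arm. Obese Zucker Diabetic Fatty (ZDF) rats, which lack a working leptin receptor, were 5 controls (animals 1 to 5) and 5 with pFUS (6 to 10) in both tissues, all male. Lean Zucker rats, their lean counterparts, gave intestine only, from 5 controls (11 to 15) and 3 with pFUS (16, 18 and 19), all male. Rats labelled DIO-stz, an abbreviation the labels do not expand, were 4 controls (3 to 6, 2 females and 2 males) in each tissue, and with pFUS 4 for pancreas (7, 8, 10 and 11, 3 males and 1 female) and 5 for intestine (7 to 11, 4 males and 1 female). DIO Diet Resistant rats were 2 females with pFUS, with no control group among these libraries. Ages are not given, and animal numbers are taken to mark different rats. Levels below are counts scaled to the library total (CPM).

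The Reg genes lie side by side on rat chromosome 4. In the RefSeq annotation of GRCr8 the order is Reg3b, the pseudogene Reg3b-ps1, Reg3a, Reg1a, the noncoding RNA gene LOC102556035 and Reg3g. The 250 bases before each annotated start are shown because Reg1a moved with the Reg3 genes in obese pancreas and apart from them in intestine. They are RefSeq sequences of GRCr8, 5′ to 3′ on the strand of the gene, at chr4:112419526-112419775 (plus strand) for Reg3b, chr4:112430147-112430396 (plus strand) for Reg3a, chr4:112450216-112450465 (plus strand) for Reg1a and chr4:112484739-112484988 (minus strand) for Reg3g. Capitals mark TTCNNNGAA, the palindrome that STAT factors recognise, TATAAA, the TATA box, and TGGGAA or its complement TTCCCA, a core of interleukin 6 response elements, searched on both strands.
Reg3b: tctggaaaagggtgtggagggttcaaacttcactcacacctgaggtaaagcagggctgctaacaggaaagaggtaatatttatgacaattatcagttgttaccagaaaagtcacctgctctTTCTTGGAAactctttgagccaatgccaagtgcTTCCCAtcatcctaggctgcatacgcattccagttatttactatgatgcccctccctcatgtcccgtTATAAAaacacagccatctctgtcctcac
Reg3a: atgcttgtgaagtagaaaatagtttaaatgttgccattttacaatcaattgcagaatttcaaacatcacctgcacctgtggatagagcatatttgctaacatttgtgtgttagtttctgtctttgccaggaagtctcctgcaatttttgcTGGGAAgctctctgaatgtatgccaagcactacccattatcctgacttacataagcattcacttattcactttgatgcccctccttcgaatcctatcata
Reg1a: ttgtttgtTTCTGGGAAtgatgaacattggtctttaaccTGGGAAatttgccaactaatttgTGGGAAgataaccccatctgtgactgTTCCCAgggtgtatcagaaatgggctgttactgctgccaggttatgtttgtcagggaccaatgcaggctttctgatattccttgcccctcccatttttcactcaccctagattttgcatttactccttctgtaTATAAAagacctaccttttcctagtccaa
Reg3g: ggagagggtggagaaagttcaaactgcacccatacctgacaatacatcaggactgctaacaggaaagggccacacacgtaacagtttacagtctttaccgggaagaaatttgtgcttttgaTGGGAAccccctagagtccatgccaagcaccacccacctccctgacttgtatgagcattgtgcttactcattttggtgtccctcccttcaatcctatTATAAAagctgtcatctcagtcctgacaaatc

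The STAT palindrome was found before Reg1a, 242 to 234 bases from the start as TTCTGGGAA, and before Reg3b, 129 to 121 bases from the start as TTCTTGGAA. It was present in 7.52% of the 27457 promoters of that length in the table, and the match before Reg1a overlaps an interleukin 6 core. The motif TATAAA lay within 32 bases of the start of Reg1a, Reg3b and Reg3g and was present in 13.1% of promoters. The interleukin 6 core was held by all 4 promoters, by that of Reg1a at 4 places, and by 21.6% of promoters. The promoters of Reg3a, Reg3b and Reg3g share the run TGCTAACA, which 90 other promoters hold and the promoter of Reg1a lacks. With the Reg3 promoters themselves counted, 0.339% of promoters hold it. They also share another run of that length, ATGCCAAG, which the promoter of Reg1a lacks too and which was not counted in other promoters. Unlike the motifs above, these runs were picked from these sequences because the Reg3 promoters share them. Aligned pairwise, the 4 promoters were identical at between 68.4% (Reg1a and Reg3g) and 77.3% (Reg3a and Reg3g) of aligned bases. These matches describe letters only. The RefSeq table gives 2 starts for Reg3a, of which the first is shown.

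Each gene had its own tissue pattern. Reg1a had counts in all 49 libraries of both tissues, from 95.5 to 1544 CPM in pancreas and from 0.361 to 223 CPM in intestine. Reg3a was a pancreas gene in these data, at 0.850 to 266 CPM there and at 0 counts in 27 of 29 intestine libraries, where 3 counts would be at most 0.319 CPM. Reg3g was its opposite, at 14.1 to 3615 CPM in intestine and at most 2.09 CPM in pancreas, with 0 counts in 10 of 20 pancreas libraries. Reg3b was present in both, at 0.463 to 258 CPM in pancreas and 21.9 to 6979 CPM in intestine. Pancreas libraries were made from total RNA and intestine libraries from mRNA, so levels are described across the tissues and not tested. The closely related genes were counted apart: lean control intestine 11 held 101702 counts of Reg3b, 52682 of Reg3g and 0 of Reg3a, and obese pFUS pancreas 6 held 349 of Reg3b, 600 of Reg3a and 0 of Reg3g.

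**Figure D1:**
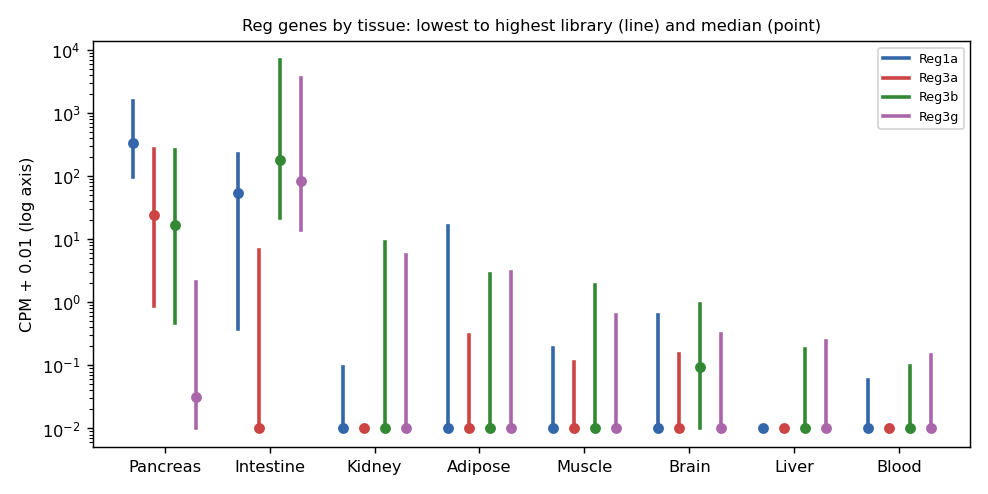
Levels of the 4 Reg genes by tissue (CPM plus 0.01, log axis), with the range over libraries as a line and the median as a point. Reg3a spans 0.850 to 266 CPM in pancreas with a median of 0 in intestine, Reg3g spans 14.1 to 3615 CPM in intestine with a highest pancreas value of 2.09 CPM, and medians in the other 6 tissues are 0 apart from Reg3b in brain at 0.0857 CPM.

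Total counts ran from 2380545 (obese pFUS 8) to 22986066 in pancreas and from 9411372 to 19041490 in intestine. Several libraries stand apart. In DIO-stz control pancreas 6, RNAs lacking a poly(A) tail took 85.8% of counts, against 14.7% to 34.0% in the other 19, acinar marker genes took 11.1% of counts, and intestinal genes were present, such as Muc13, a membrane mucin, at 15.7 CPM against at most 0.991 CPM elsewhere in pancreas. In obese pFUS intestine 7 the elastase gene Cela1 was at 1265 CPM and the insulin gene Ins2 at 26.7 CPM, pancreatic genes that reached at most 45.1 and 0 CPM in the other 28. The ileal bile acid-binding protein gene Fabp6 was above 100 CPM in 8 intestine libraries, namely obese control 1, lean controls 11 and 14, DIO-stz controls 3, 4 and 6 and DIO-stz pFUS 7 and 9, at 114 to 14140 CPM, and at most 6.62 CPM in the other 21. Group comparisons of Reg3b and Reg3g in intestine are also given without the libraries with ileal Fabp6. Those of the Reg genes in DIO-stz pancreas are also given without DIO-stz control 6. Gene ENSRNOG00000030106, which was high or low in both tissues of most obese rats, went against the shared animal number in obese rats 5 (47.7 CPM in intestine and 0.214 in pancreas) and 9 (15.8 and 0). Rat 8, at 1.80 and 2.52 CPM, was set aside with them in a relation below. For rat 8 these values are close, and pancreas and intestine libraries differ in kind. Obese rats are grouped below as labelled, and whether any library carries another rat's number was not tested.

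In obese ZDF pancreas the Reg genes separated animals rather than treatments. Reg1a was at 409, 532, 1544, 1506 and 476 CPM in obese controls 1 to 5 and at 634, 686, 652, 572 and 909 CPM in obese pFUS 6 to 10. Every pFUS library lay inside the control range, since controls 3 and 4 were the highest of the 10 and the other 3 controls the lowest. Reg3a again had controls 3 and 4 highest and the other 3 controls lowest, at 39.1, 51.8, 247, 266 and 50.9 CPM in controls and 70.8, 76.7, 78.6, 84.8 and 139.9 CPM with pFUS. Reg3b was at 25.0, 33.0, 204, 258 and 34.6 CPM in controls and 41.2, 59.0, 89.5, 80.2 and 95.8 CPM with pFUS. Here too controls 3 and 4 were above, and the other 3 controls below, every pFUS library. Reg3g stayed at or under 1.87 CPM, its highest value again in control 3. Of the islet hormones, Ins2 was at 935 and 1065 CPM in controls 3 and 4, 408 to 706 CPM in the other controls and 250.4 to 1158 CPM with pFUS, and its part in the result was not tested.

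With edgeR's quasi-likelihood test, pFUS against control gave log2 fold changes of -0.21 ± 0.36 (SE, adjusted p = 0.944) for Reg1a, -0.36 ± 0.57 (adjusted p = 0.937) for Reg3a and -0.40 ± 0.70 (adjusted p = 0.949) for Reg3b, n = 5 and 5. The 95% intervals ran from -0.91 to 0.49, -1.48 to 0.76 and -1.77 to 0.98. None of the 3 members tested passed the adjusted threshold of 0.05 in edgeR or DESeq2 or had an unadjusted p under 0.05, where 0.0718% of 9743 genes passed in edgeR. Leaving out single libraries moved the values between -0.37 and 0.03 for Reg1a, -0.57 and 0.05 for Reg3a and -0.63 and 0.16 for Reg3b. The libraries give bulk RNA, in which fewer cells of a type and less RNA per cell cannot be told apart.

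The spread between obese controls was large for these genes. The SD of log2(CPM + 1) over the 5 controls was 0.94 for Reg1a, 1.34 for Reg3a and 1.59 for Reg3b, against a median of 0.21 over the 4836 genes with a mean of at least 5 CPM. Those SDs exceeded 98.9%, 99.5% and 99.6% of genes. Over the 5 pFUS libraries the SDs were 0.25, 0.39 and 0.50, above 47.6%, 80.5% and 90.9% of 4646 genes. The difference in spread between the groups was not tested.

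The 3 genes rose and fell together across the 10 obese pancreata. Reg3a and Reg3b correlated at Pearson r = 0.97 (permutation p = 1e-05, the smallest that the resamples allow, adjusted p = 5.33e-05 over 16 relations) and Spearman rho = 0.98 (permutation p = 4e-05, adjusted p = 3.20e-04). Reg1a and Reg3a gave r = 0.98 (permutation p = 5e-05, adjusted p = 2.00e-04) and rho = 0.90 (permutation p = 7.40e-04, adjusted p = 0.00237). Reg1a and Reg3b gave r = 0.94 (permutation p = 1.90e-04, adjusted p = 6.08e-04) and rho = 0.92 (permutation p = 5.80e-04, adjusted p = 0.00232). Controls 3 and 4 stand apart, and without the 2 libraries farthest from the median of the first gene r was 0.91, 0.95 and 0.81. In the 10 DIO pancreata, where DIO-stz control 6 is included, Reg3a and Reg3b gave r = 0.64 (permutation p = 0.0471, adjusted p = 0.0745), and Reg1a gave r = 0.23 with Reg3a and 0.26 with Reg3b (adjusted p = 0.515 and 0.486). Without DIO-stz control 6 Reg3a and Reg3b gave r = 0.95 (exact permutation p = 5.46e-04) and rho = 0.93 (exact permutation p = 7.50e-04), n = 9, and r = 0.94 without the 2 farthest libraries. Reg1a then gave r = 0.25 and 0.29 (exact permutation p = 0.498 and 0.449). The difference in these relations between the cohorts was not tested.

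**Figure D2:**
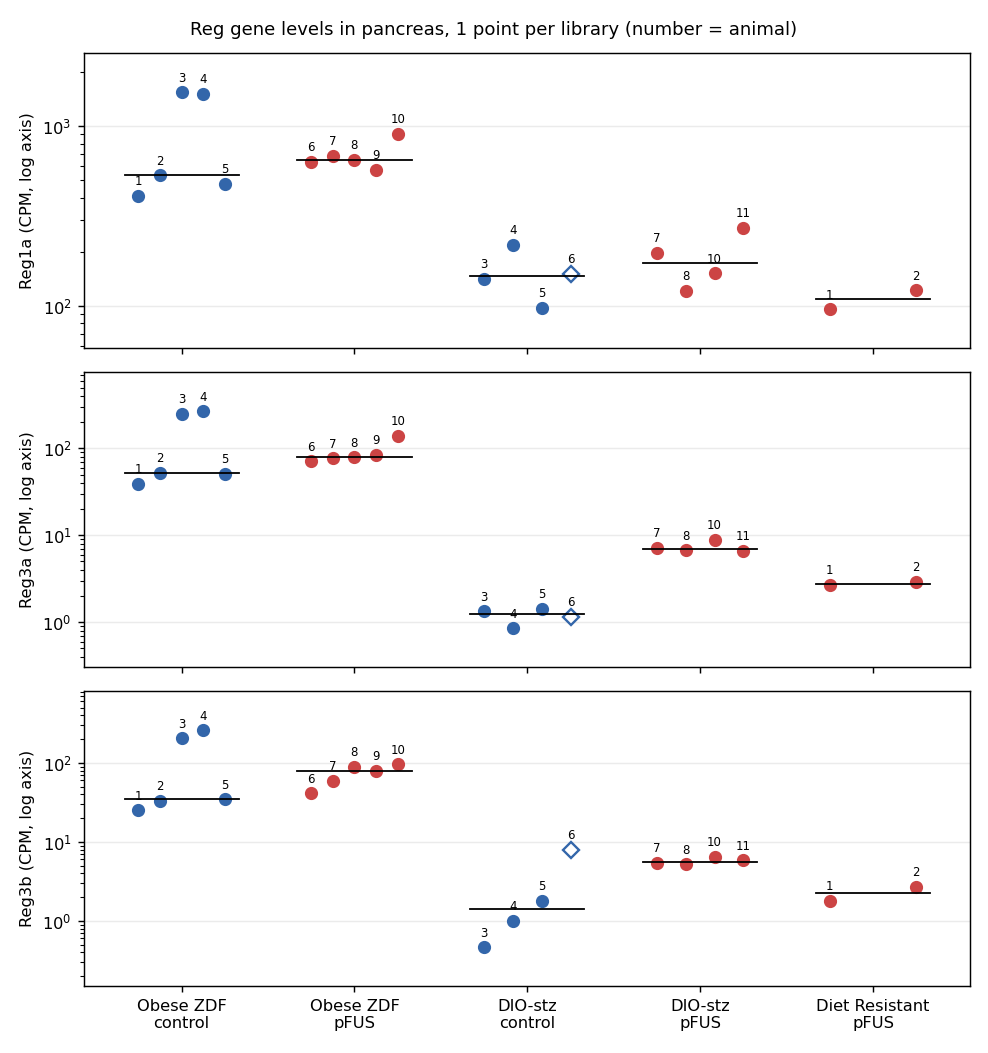
Reg1a, Reg3a and Reg3b in pancreas (CPM, log axes), 1 point per library with the animal number above it, blue for control and red for pFUS, and a line at the group median. Obese controls 3 and 4 are the highest libraries for all 3 genes. By library totals Reg3a in DIO-stz rats is at 6.62 to 8.85 CPM with pFUS and 0.850 to 1.41 CPM in controls. The open diamond is DIO-stz control 6, which held intestinal genes.

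In DIO-stz pancreas the clearest separation by library totals was that of Reg3a. It was at 1.33, 0.850, 1.41 and 1.15 CPM in DIO-stz controls 3 to 6 and at 7.15, 6.71, 8.85 and 6.62 CPM in DIO-stz pFUS 7, 8, 10 and 11. All 4 pFUS libraries were above all 4 controls, as were 4.76% of the 11790 genes tested. This holds on library totals only. Scaled by the trimmed mean of M-values (TMM) over all pancreas libraries, Reg3a was at 5.96 CPM in control 6. With pFUS it was then at 5.21 to 8.74 CPM, so the groups overlapped through control 6. Reg3b was at 0.463, 1.00 and 1.80 CPM in controls 3 to 5, at 7.96 CPM in control 6 and at 5.38, 5.20, 6.39 and 5.85 CPM with pFUS. Control 6, in which intestinal genes were highest, was above all 4 pFUS libraries, and the other 3 controls were below them. Reg1a overlapped between groups, at 141, 218, 97.8 and 151 CPM in controls and 197, 121, 152 and 273 CPM with pFUS. Levels of Reg3a in all DIO rats were far under the 39.1 to 266 CPM of obese ZDF rats, a difference between models that was not tested; the obese rats were all male and the DIO groups held females.

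In the fit with all libraries and a sex term, the log2 fold change of Reg3a was 1.53 ± 0.49 (edgeR adjusted p = 0.260), that of Reg3b -0.57 ± 1.27 (adjusted p = 0.895) and that of Reg1a -1.03 ± 0.69 (adjusted p = 0.608), n = 4 and 4. So 0 of 3 members passed, where 1.02% of 11790 genes did; Reg3a alone had an unadjusted p under 0.05, and DESeq2 called 0. The negative values of Reg3b and Reg1a go against their CPM. In this fit the TMM scaling factor of control 6 was 0.205 against 0.705 to 1.47 in the other DIO-stz controls. With library totals in place of TMM they were 1.19 and 0.43, with a median over all genes of 0.57 against 0.00. Without control 6 Reg3a rose by 2.28 ± 0.39 (adjusted p = 0.0158) and Reg3b by 2.17 ± 0.33 (adjusted p = 0.00910), while Reg1a was at 0.50 ± 0.31 (adjusted p = 0.737). With the summed acinar marker level as a covariate and control 6 kept, Reg3a passed (2.13, adjusted p = 0.0193) and Reg3b did not (1.79, adjusted p = 0.0611). The share of all genes that passed without control 6 or with the covariate is not given, so these calls cannot be read against it. Over all alternatives adjusted p ran from 0.0158 to 0.856 for Reg3a and from 0.00910 to 0.979 for Reg3b.

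Other pancreatic genes differed between the same groups. Ins2 rose with pFUS (3.12 ± 0.54, adjusted p = 0.0311), from 5.32 to 54.9 CPM in controls to 73.6 to 441 CPM, 1 of 16 islet markers tested to pass. The acinar proteases that fell were Prss2 (-2.14 ± 0.37, adjusted p = 0.0117) and Prss3 (-7.67 ± 0.90, adjusted p = 0.00625), with 0 of 24 acinar markers rising. The calls of Ins2, Prss2 and Prss3 and the count of 0 rising come from the TMM-scaled fit that includes control 6. Values without control 6 are not given for these genes. Cela1 lay between 1917 and 15480 CPM in controls and between 13892 and 26131 CPM with pFUS, and LOC103689940 between 216 and 2798 CPM in controls and between 125617 and 166007 CPM with pFUS. Summed acinar markers ran from 111008 to 568966 CPM in controls and from 469715 to 520225 CPM with pFUS. Among 11 enterocyte markers in the file, all 11 had counts in control 6 and in pFUS 7 and 3 to 6 in the other DIO-stz controls. The lactase gene Lct was at 31.2 CPM in control 6, 1.27 CPM in pFUS 7 and 0 in the other controls. Their part in the values of the Reg genes was not tested beyond the fits above.

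Diet Resistant pancreas with pFUS held Reg3a at 2.68 and 2.89 CPM and Reg3b at 1.81 and 2.72 CPM, each above DIO-stz controls 3 to 5 and below the DIO-stz pFUS libraries. Both were below every DIO-stz pFUS library, as were 9.45% of genes. Reg1a, at 95.5 and 122 CPM, overlapped them. In edgeR the differences from DIO-stz pFUS were -0.83 ± 0.64 for Reg3a, 0.08 ± 1.70 for Reg3b and -0.49 ± 0.95 for Reg1a (adjusted p = 1.00 for each, n = 2 and 4), and 0 of 3 members and 0% of 11790 genes passed (unadjusted p under 0.05 in 0 members and 262 genes; DESeq2 calls for 0 members and 12 genes). The sign for Reg3b turned with library totals (-0.47) and without control 6 (-0.99). Both Diet Resistant rats were female and 3 of the 4 DIO-stz pFUS rats were male.

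In intestine, Reg3b and Reg3g separated lean controls from the other ZDF-cohort groups, apart from 1 animal. Reg3b was at 6979, 2822, 1787, 2509 and 175 CPM in lean controls 11 to 15 and at 309.8, 157 and 136 CPM in lean pFUS 16, 18 and 19. Obese controls 1 to 5 had 410.2, 392, 85.8, 133 and 176 CPM, and obese pFUS 6 to 10 had 196, 179, 116, 179.9 and 70.5 CPM. Lean controls 11 to 14 were thus above all 14 other libraries of the cohort, and lean control 15 lay among the rats with pFUS. This division of the lean controls was made after the values were seen. The share of all genes that divide the libraries in the same way was not computed. Reg3g repeated the pattern, at 3615, 1412, 851, 1038 and 48.7 CPM in lean controls and 82.9, 43.9 and 29.7 CPM in lean pFUS. In obese rats Reg3g was at 303, 117, 46.5, 46.9 and 59.2 CPM in controls and at 120.3, 172, 35.2, 81.5 and 45.5 CPM with pFUS, with full overlap.

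**Figure D3:**
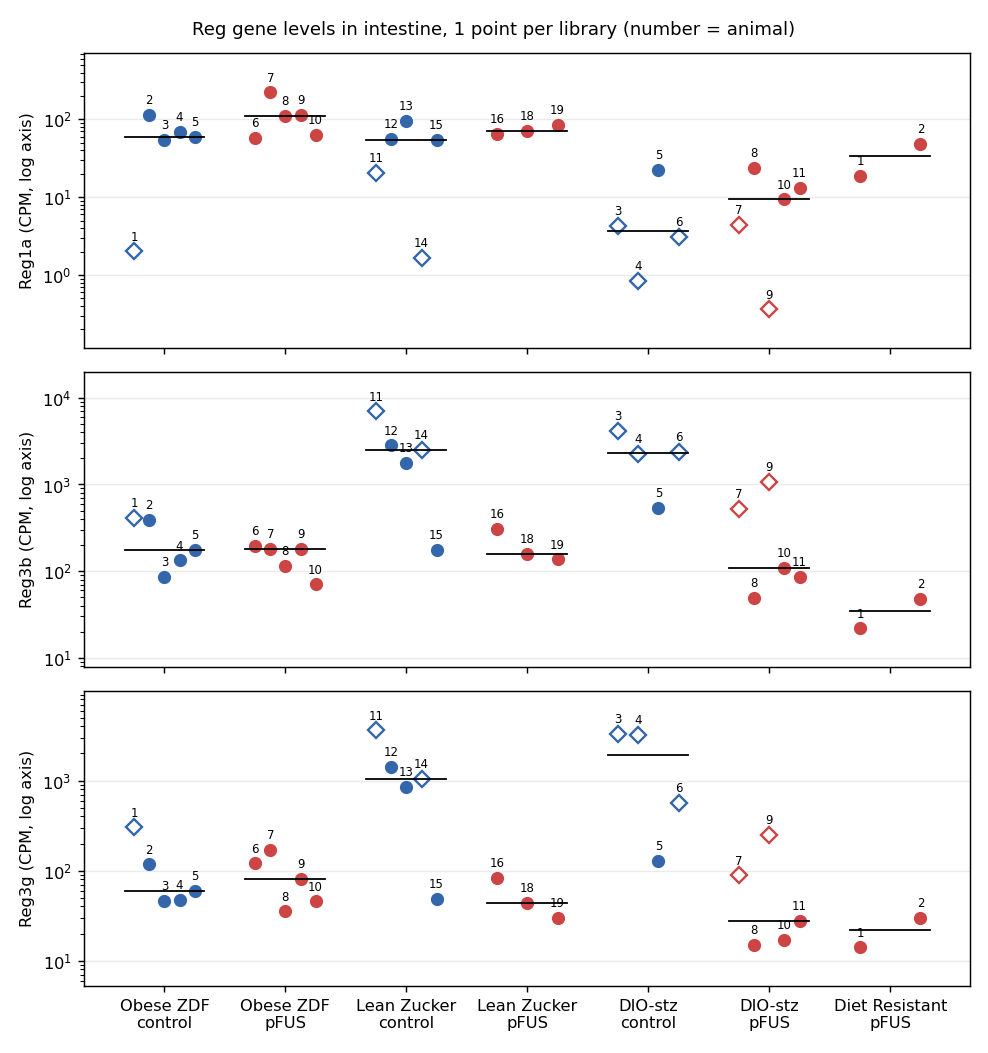
Reg1a, Reg3b and Reg3g in intestine (CPM, log axes), 1 point per library with the animal number above it, blue for control and red for pFUS, open diamonds for the 8 libraries with Fabp6 above 100 CPM and a line at the group median. Lean controls 11 to 14 are above all other obese and lean libraries for Reg3b and Reg3g, and lean control 15 is at 175 and 48.7 CPM.

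For pFUS against control in lean rats the log2 fold change was -3.79 ± 0.89 for Reg3b (unadjusted p = 5.50e-04, edgeR adjusted p = 0.448) and -4.71 ± 1.14 for Reg3g (unadjusted p = 7.69e-04, adjusted p = 0.448), n = 3 and 5. With edgeR 0 of 3 members passed, 2 had an unadjusted p under 0.05, and 0.0068% of 14709 genes passed. DESeq2 called both, at adjusted p = 7.20e-05 for Reg3b and 1.33e-04 for Reg3g. Without lean control 15 edgeR called both too, Reg3b at -4.09 ± 0.68 (adjusted p = 0.0198) and Reg3g at -5.02 ± 0.92 (adjusted p = 0.0231), with 173 genes past the threshold. That library is the lowest lean control for both genes, so leaving it out takes the groups apart. Without the libraries with ileal Fabp6 the values were -2.88 and -3.78 (adjusted p = 0.710 for both), and over all alternatives adjusted p ran from 7.20e-05 to 0.832 for Reg3b and from 1.33e-04 to 0.832 for Reg3g.

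Obese against lean controls gave -3.60 ± 0.71 for Reg3b (unadjusted p = 9.85e-05, edgeR adjusted p = 0.134) and -3.63 ± 0.87 for Reg3g (unadjusted p = 6.59e-04, adjusted p = 0.195), n = 5 and 5. Here 0 of 3 members passed in edgeR, 2 had an unadjusted p under 0.05, and 0.0136% of 14709 genes passed. DESeq2 called both (adjusted p = 7.71e-06 and 0.00225), as did edgeR without lean control 15 (-3.91 ± 0.55, adjusted p = 0.00706, and -3.94 ± 0.70, adjusted p = 0.0238). Leaving out that library, the lowest lean control for both genes, takes these groups apart as well. The share of all genes that passed without it is not given. Over all alternatives adjusted p ran from 7.71e-06 to 0.609 for Reg3b and from 0.00225 to 0.609 for Reg3g. Without the libraries with ileal Fabp6 the values were -3.004 and -3.49 (adjusted p = 0.203 for both). This comparison and that of pFUS in lean rats share the lean controls.

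In obese rats pFUS against control gave -0.36 ± 0.64 (adjusted p = 0.810) for Reg3b and 0.01 ± 0.78 (adjusted p = 0.995) for Reg3g, with 95% intervals from -1.61 to 0.90 and from -1.52 to 1.54. Without obese control 1, the obese library with ileal Fabp6, and the lean ones the values were -0.0612 (adjusted p = 0.966) and 0.78 (adjusted p = 0.573). None of 3 members passed in edgeR or DESeq2 or had an unadjusted p under 0.05, where 0.0612% of 14709 genes passed in edgeR. The difference between the pFUS effects, obese minus lean, was 3.44 ± 1.04 for Reg3b (edgeR adjusted p = 0.373) and 4.72 ± 1.31 for Reg3g (adjusted p = 0.348), and 0 of 3 members passed (2 at an unadjusted p under 0.05), with 0.0068% of 14709 genes. DESeq2 called the difference for Reg3g (adjusted p = 0.0352) and not for Reg3b (adjusted p = 0.0534). Without the libraries with ileal Fabp6 the difference was 2.82 for Reg3b (edgeR adjusted p = 0.290) and 4.56 for Reg3g (adjusted p = 0.195). Reg3b and Reg3g were thus not shown by edgeR to respond differently in obese and lean rats.

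DIO-stz intestine also had its highest Reg3b and Reg3g in controls. Reg3b was at 4116, 2277, 538 and 2359 CPM in DIO-stz controls 3 to 6 and at 528, 48.7, 1064, 109 and 86.8 CPM in DIO-stz pFUS 7 to 11. The groups overlapped through control 5 and pFUS 9. Reg3g was at 3276, 3249, 129 and 562 CPM in controls and at 88.7, 14.9, 249.9, 17.1 and 27.6 CPM with pFUS, again overlapping at those animals. Diet Resistant rats had the lowest Reg3b of the 29 libraries, at 21.9 and 48.2 CPM, with Reg3g at 14.1 and 29.9 CPM.

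For pFUS against control in DIO-stz intestine the log2 fold change was -2.79 ± 1.06 for Reg3b and -3.22 ± 1.22 for Reg3g (unadjusted p = 0.0243 and 0.0244, edgeR adjusted p = 0.952 for both, n = 5 and 4). No member of 3 passed, 2 had an unadjusted p under 0.05, and 0% of 14833 genes passed (513 genes had an unadjusted p under 0.05; DESeq2 called 6, none of them a member, and gave no adjusted p for Reg3g). Libraries with ileal Fabp6 were 3 of the 4 controls and 2 of the 5 with pFUS. Without them, with 1 control left that is assumed to vary like the other groups, the values were -2.68 (adjusted p = 0.423) and -2.91 (adjusted p = 0.363). With log2 Fabp6 as a covariate Reg3g passed (-2.77, adjusted p = 0.0324, against up to 1.00 over its other alternatives) and Reg3b did not (-2.14, adjusted p = 0.405). The share of all genes that passed with this covariate is not given. In males alone the values were -1.92 and -2.11 (adjusted p = 0.999 for both).

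Diet Resistant against DIO-stz intestine, both with pFUS, gave -3.03 ± 1.61 for Reg3b, -3.21 ± 1.93 for Reg3g and 2.38 ± 1.42 for Reg1a (edgeR adjusted p = 0.939 for each, n = 2 and 5). These sizes moved with the setting: without the libraries with ileal Fabp6, 2 of the 5 DIO-stz libraries here, they were -1.20, -0.22 and 1.45, and with Fabp6 as a covariate -0.62, -0.0844 and 0.69 (adjusted p from 0.419 to 1.00 over all alternatives of Reg3b). Of 8 ileum and 8 Paneth markers tested 0 passed, with medians of -3.85 and -2.49 against 0.02 over all genes, and their part in the result was not tested beyond these fits. Again 0 of 3 members passed, at 0% of 14833 genes (unadjusted p under 0.05 in 0 members and 592 genes; DESeq2 calls for 0 members and 21 genes). Reg3b in both Diet Resistant libraries was below all 5 DIO-stz libraries, as were 14.2% of genes.

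Reg1a behaved differently from the Reg3 genes in intestine. It was at 2.01, 114.8, 55.1, 69.8 and 59.0 CPM in obese controls and 57.3, 223, 111, 115 and 63.2 CPM with pFUS, the 223 CPM being in the library with pancreatic genes. In lean rats it was at 20.7, 56.4, 96.7, 1.67 and 54.0 CPM in controls and 65.0, 70.6 and 85.2 CPM with pFUS. In DIO-stz rats it was at 4.25, 0.845, 22.7 and 3.09 CPM in controls and 4.42, 23.8, 0.361, 9.36 and 13.2 CPM with pFUS. The low values are those of libraries with ileal Fabp6. Reg1a ran from 0.361 to 20.7 CPM, median 2.55, in these 8 libraries and from 9.36 to 223 CPM, median 59.0, in the other 21, so that within each cohort the 2 kinds of library did not overlap. The 2 kinds were told apart after their values were seen. The share of all genes that separate them in this way was not computed, so the separation is not shown to be particular to Reg1a. The log2 fold changes with pFUS were 1.22 ± 0.80 in obese (adjusted p = 0.437), 0.75 ± 0.90 in lean (adjusted p = 0.766) and 0.58 ± 1.03 in DIO-stz rats (adjusted p = 0.970). Without the library with pancreatic genes the value in obese rats was 0.78 (adjusted p = 0.706). Obese against lean controls gave 0.39 ± 0.79 (adjusted p = 0.846), and the pFUS effects differed by 0.47 ± 1.21 (adjusted p = 0.920). With Fabp6 as a covariate the values in lean and DIO-stz rats turned to -0.49 and -0.84 and that of obese against lean controls to -0.58.

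**Figure D4:**
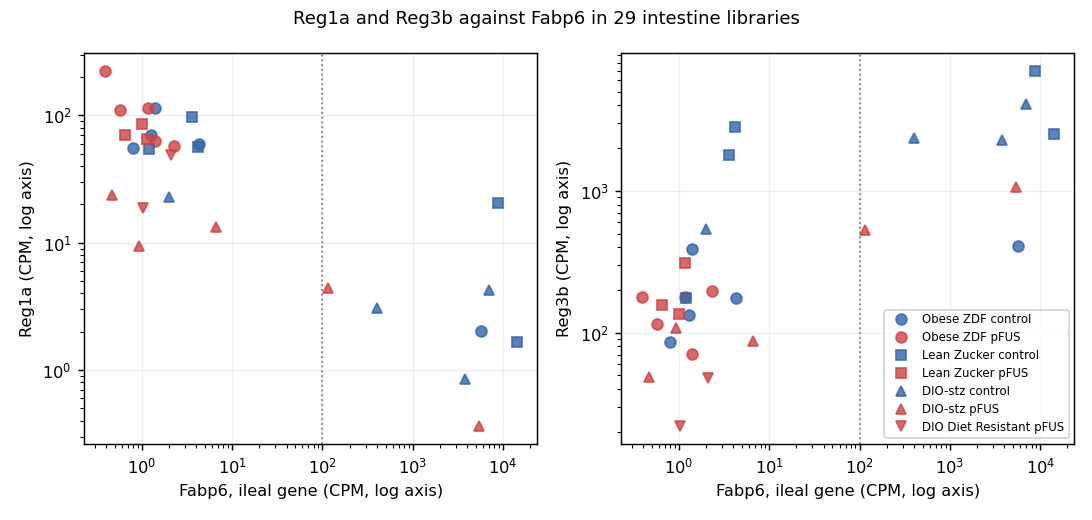
Reg1a (left) and Reg3b (right) against the ileal gene Fabp6 in the 29 intestine libraries (CPM, log axes), blue for control, red for pFUS, with a dotted line at 100 CPM of Fabp6. Reg1a has a median of 2.55 CPM to the right of the line and 59.0 CPM to its left, and 2 lean controls to the left of the line hold 1787 and 2822 CPM of Reg3b.

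Ileal Fabp6 differed between libraries of 1 group and moved in part with Reg3b. Of the 8 libraries with Fabp6 above 100 CPM, 5 had Reg3b between 2277 and 6979 CPM, obese control 1 had 410.2 CPM, and DIO-stz pFUS 7 and 9 had 528 and 1064 CPM. Lean controls 12 and 13, with 4.16 and 3.60 CPM of Fabp6, had 2822 and 1787 CPM of Reg3b, above the highest lean pFUS value of 309.8 CPM. Markers of Paneth cells, which make defensins at the crypt base, also went with Reg3b in lean rats. Their sum over 11 markers in the file, of which 8 or 9 had counts, was 4494 to 16971 CPM in lean controls 11 to 14, 1295 CPM in lean control 15 and 1162 to 1806 CPM in lean pFUS. In obese rats it was 589 to 5693 CPM in controls and 604 to 1829 CPM with pFUS, and in DIO-stz rats 790.5 to 7304 CPM and 426 to 4696 CPM. Of 8 Paneth markers tested 0 passed for pFUS in lean rats, with a median of -2.72 against -0.06 over all genes, and 0 for pFUS in DIO-stz rats, with a median of 0.15. For obese against lean controls 0 of 8 passed, with a median of -1.74 against -0.01 over all genes. The 8 ileum markers tested had medians of -1.67 for pFUS in lean rats and -1.23 for obese against lean controls. Those of 8 markers of proximal small intestine were 0.61 and 0.65. For pFUS in DIO-stz rats the ileum and proximal medians were 0.11 and 1.37, and 0 of these markers passed in the 3 comparisons. The part of ileal Fabp6 and of the Paneth, ileum and proximal markers in the Reg3 values was not tested beyond the fits above.

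Reg3b and Reg3g moved as a pair in intestine. Over the 18 obese and lean libraries r was 0.96 and rho 0.92 (permutation p = 1e-05 for both, adjusted p = 5.33e-05 and 1.60e-04), and over the 11 DIO libraries r was 0.94 (permutation p = 1e-05, adjusted p = 5.33e-05) and rho 0.93 (permutation p = 2.10e-04, adjusted p = 0.00112). Without the 2 farthest libraries r was 0.92 and 0.95. Reg1a went against them in DIO rats, with r = -0.77 for Reg3b (permutation p = 0.00699, adjusted p = 0.0186) and rho = -0.77 (permutation p = 0.00726, adjusted p = 0.0166), and r = -0.71 for Reg3g (permutation p = 0.0154, adjusted p = 0.0307) and rho = -0.68 (permutation p = 0.0255, adjusted p = 0.0511). In obese and lean rats Reg1a gave r = -0.45 and -0.46 (adjusted p = 0.0745 for both, permutation). These pooled values span libraries with and without ileal Fabp6, which stand apart for Reg1a, so relations were also computed in those up to 100 CPM. There Reg3b and Reg3g gave r = 0.93 in 15 obese and lean libraries (permutation p = 7e-05), falling to 0.62 without lean controls 12 and 13. In 6 DIO libraries it was r = 0.87 (exact permutation p = 0.0444), which rested on 2 libraries (r = -0.09 without them). Reg1a and Reg3b gave r = 0.01 (permutation p = 0.976, n = 15) and r = -0.16 (exact permutation p = 0.762, n = 6) in these sets.

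The ratio of Reg3b to Reg3g counts was not constant. It ran from 1.05 to 3.34 in obese rats, from 1.93 to 4.60 in lean rats and from 0.701 to 6.35 in DIO rats. In lean rats the ratios were 3.58 to 4.60 in the 3 pFUS libraries and 3.59 in control 15, against 1.93 to 2.42 in controls 11 to 14. Libraries with less of both genes thus held relatively less Reg3g in lean rats.

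Tissues of the same animal number were also set side by side. In the 10 obese rats Reg3b in pancreas and in intestine correlated negatively, with r = -0.76 (permutation p = 0.0112, adjusted p = 0.0255) and rho = -0.83 (permutation p = 0.00481, adjusted p = 0.0128), and r = -0.86 without the 2 farthest animals. Controls 3 and 4, highest in pancreas, had 85.8 and 133 CPM in intestine, whereas controls 1 and 2, lowest in pancreas, had 410.2 and 392 CPM. Without rats 5, 8 and 9, set aside for their values of ENSRNOG00000030106, r was -0.80 (exact permutation p = 0.0361, n = 7). The 2 tissues of rat 8 were close at that gene. Obese control 1, whose intestine library had ileal Fabp6, stayed in all of these relations, and none was computed without it. In 10 DIO rats r was -0.32 (permutation p = 0.360, adjusted p = 0.443), and -0.59 without DIO-stz control 6 (exact permutation p = 0.0943, n = 9). Reg1a showed no such relation in obese rats (r = 0.28, permutation p = 0.432, adjusted p = 0.486) and gave r = -0.57 in DIO rats (permutation p = 0.0902, adjusted p = 0.120).

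**Figure D5:**
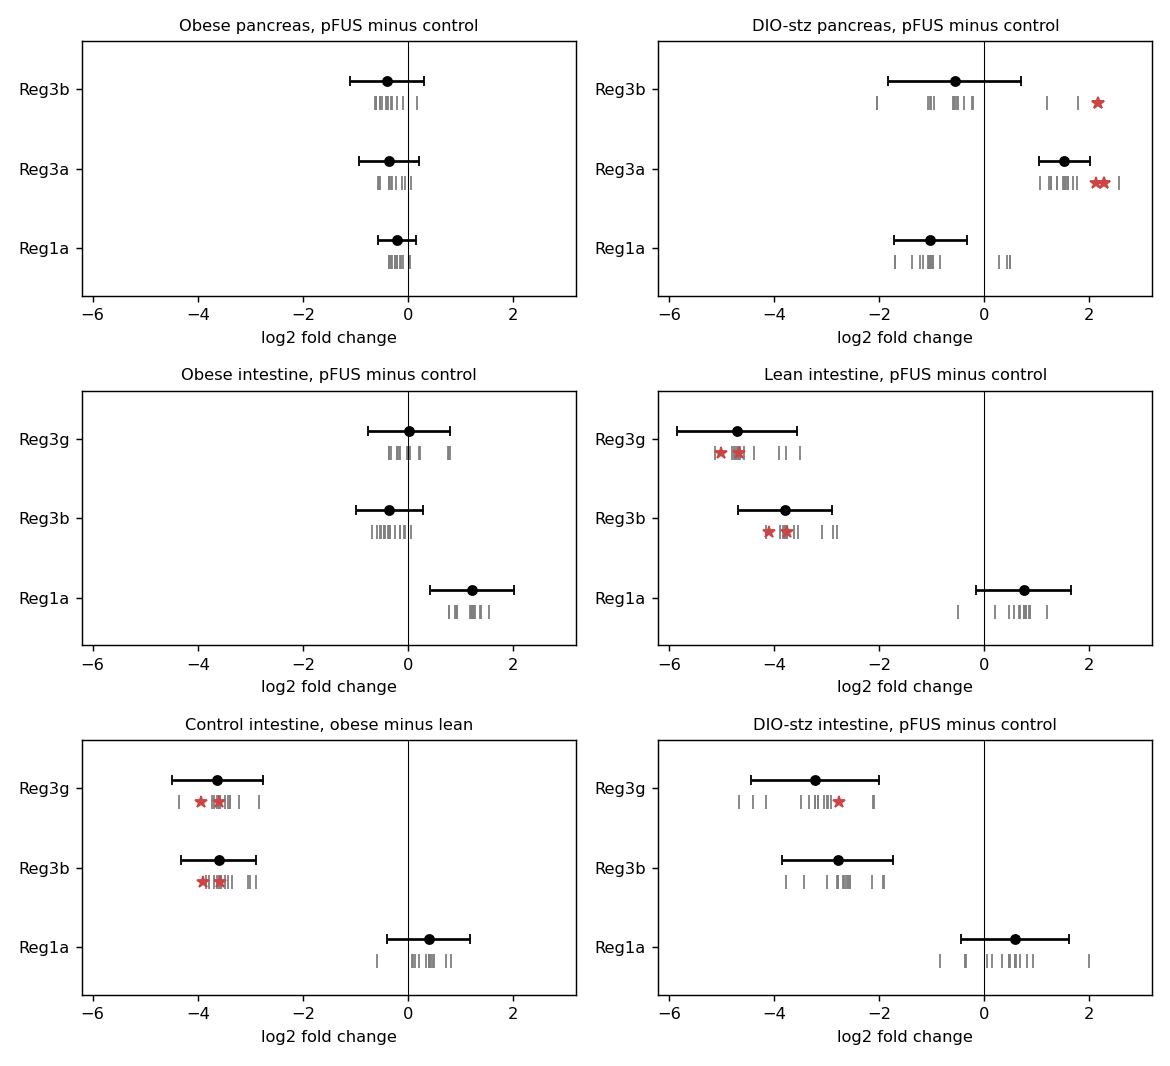
Log2 fold changes of the Reg genes in 6 comparisons, with edgeR's value and standard error as a black point and bar, values under alternatives as grey ticks, and red stars for alternatives with an adjusted p under 0.05. No black point passes; Reg3a in DIO-stz pancreas lies at 1.53, Reg3b and Reg3g in lean intestine at -3.79 and -4.71, and Reg3b in DIO-stz pancreas runs from -2.04 to 2.17 over alternatives that include library totals.

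The genes most like each member were named by Spearman's rho over libraries, as a description, since the libraries share cohort, scaling and tissue makeup. Over 20 pancreas libraries Reg3a was most like Cmpk1 (rho = 0.94), a pyrimidine nucleotide kinase, and Reg3b (0.94), followed by Yipf6, Adss and Tnpo1. Reg1a was most like Reg3b (0.91), RF00019, Lmbrd2, Reg3a and Cmpk1. Over 29 intestine libraries Reg3b was most like Reg3g (0.95), then Tifa (0.86), an adaptor of bacterial sensing, the defensin Defal1 (0.84), Cd63 and Habp2. Reg3g was most like Reg3b, Cd63 (0.84), Defal1 (0.81), Tifa (0.78) and the defensin Defa8 (0.77). Reg1a was most like Gsta3 (0.89), a glutathione transferase, Gclm (0.86), the limiting subunit of glutathione synthesis, Akr1c12, Ddc and Mdh1, and had rho = -0.31 with Reg3b.

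Few genes passed the adjusted test in any of these comparisons, between 0% and 1.02% of all genes, and the counts for lists of related genes are to be read against that share. Reg4, a goblet and enteroendocrine relative of the family, was at 13.7 to 70.9 CPM in lean control intestine and at 56.7, 96.5 and 96.4 CPM in lean pFUS (1.49 ± 0.46, adjusted p = 0.448), while it had counts in 1 pancreas library, DIO-stz control 6. Of 34 genes of the Reg receptor and of interleukin 6 and 22 signalling, 33 were in the file. None of the 18 tested in obese pancreas, 20 in DIO-stz pancreas or 28 in the intestine of obese, lean and DIO-stz rats passed for pFUS against control in either direction, with medians from -0.09 to 0.07 against -0.06 to 0.00 over all genes. In lean intestine with pFUS Stat3, which carries the interleukin 22 signal, was at -0.15 ± 0.14 (adjusted p = 0.669) and Jak1 at -0.05 ± 0.20 (adjusted p = 0.930). Il22ra1, the interleukin 22 receptor gene, chosen after its values were seen, was at -0.73 ± 0.19 in obese pancreas (unadjusted p = 0.00149, edgeR adjusted p = 0.290) and -0.75 ± 0.29 in DIO-stz pancreas (unadjusted p = 0.0227, adjusted p = 0.336). Its mean went from 33.1 CPM in controls to 19.2 CPM with pFUS in obese pancreas. In DIO-stz pancreas the means were close, at 47.2 and 44.0 CPM, and the fit includes DIO-stz control 6. Il22 itself had counts in 2 of 29 intestine libraries, 1 count each. Of the epithelial defence genes known to be induced with Reg3, 11 or 12 were tested in intestine and 4 in pancreas and 0 passed in any comparison, at the same share of 0% to 1.02% over all genes. Their median was -0.67 for pFUS in lean rats and 0.28 in DIO-stz rats. The 8 genes of MHC class II and its regulator gave 0 calls too, with Cd74 at -0.69 ± 0.45 for pFUS in lean rats (adjusted p = 0.560). In obese pancreas 17 acinar injury and stress genes gave 0 calls, with a median of -0.12, and in DIO-stz pancreas 19 gave 0, with a median of -0.34. The DIO-stz pancreas values of these lists come from the fit that includes DIO-stz control 6.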

How the data were processed

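Pancreas libraries were prepared from total RNA and intestine libraries from mRNA, both with stranded kits, per the labels. STAR 2.5.3a, RSEM and the build Rnor_6.0 are named in the submitters' processing notes. The deposited values are expected counts (RSEM) by gene; all were whole numbers and none were normalized. Isoform counts were not used. Which annotation was used is not given in the sources at hand. CPM was computed from library totals.

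Obese with lean rats, and DIO rats, formed 1 fit per tissue in edgeR 4.0.16 (R 4.3.3). Genes were kept by filterByExpr (minimum count 10), scaled by TMM and tested by robust quasi-likelihood F tests, with sex as a term in DIO rats. P-values were adjusted over all genes tested by Benjamini-Hochberg, at a threshold of 0.05, in 9 comparisons. Each SE was derived from the log2 fold change and its F statistic, and 95% intervals are normal. DESeq2 1.42.0 was an alternative; the others are in the closing section. Relations used log2(CPM + 1) with 100000 resamples, or exact permutations under 10 values, two-sided. The p-values of edgeR set a group difference against the spread between libraries of different rats. In intestine that spread includes libraries with and without ileal Fabp6.

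The members, gene lists and tests were chosen with earlier results of these data known. The 4 members are always named; from a list, up to 4 called genes, or else up to 3 of highest mean CPM; and the 5 genes of highest rho per member. Libraries that stand apart, and genes named to describe them, were singled out after their values were seen. Some genes of highest CPM in a list are given as counts only. Of 83 pairs of libraries within groups, none were alike within sampling noise (lowest chi-square per degree of freedom 8.93). On simulated counts edgeR recovered, of genes changed 2-fold and 4-fold, 33% and 98% in the DIO-stz pancreas comparison (11790 genes), 63% and 97% in lean intestine (14709 genes) and 8% and 84% in DIO-stz intestine (14833 genes). For Diet Resistant against DIO-stz the shares were 5% and 77% in pancreas (11790 genes) and 2% and 25% in intestine (14833 genes). The changes were planted in genes drawn from those with a mean above 5 CPM, and the bracketed numbers are all genes simulated. Reg3a and Reg3b averaged 3.96 and 3.86 CPM in DIO pancreas, under that level. In most groups the Reg genes also vary more between rats than most genes do.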

Additional observations from a re-analysis of the deposited data

Results flagged for a closer look

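Of 27 group and gene combinations with 4 or 5 libraries, 3 held a library far from the rest of its group; chance gives about 1 in 20. Reg1a was at 22.7 CPM in DIO-stz control intestine 5, against at most 4.25 CPM in the other 3 controls, which are the libraries with ileal Fabp6. Reg3a was at 139.9 CPM in obese pFUS pancreas 10, against 70.8 to 84.8 CPM in the other 4. Reg3g was at 303 CPM in obese control intestine 1, the obese library with ileal Fabp6, against 46.5 to 117 CPM in the others.

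A Reg gene also appeared where it was not part of a comparison. Reg1a was at 16.3 CPM (278 counts) in DIO-stz pFUS adipose 9, a library with 853 CPM of Cela1 and 1907 CPM of the trypsinogen gene Prss1, and no other adipose library had 10 counts of it. Reg3a was at 6.69 CPM (103 counts) in obese pFUS intestine 7, which held Cela1 at 1265 CPM and Ins2 at 26.7 CPM.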

How the results depend on the processing

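Of 492 member values under alternatives, 441 kept their direction and side of the threshold, 13 came to pass it, 0 lost it and 38 turned direction, 21 of them other than by leaving out 1 library. The cause of each change was not tested. Against 0 members past the threshold, leaving out single libraries gave 0 to 2 for pFUS in DIO-stz pancreas (2 without control 6), in lean intestine and for obese against lean controls (2 without lean control 15 in both). The acinar covariate gave 1 in DIO-stz pancreas, DESeq2 gave 2 in lean intestine, 2 for obese against lean controls and 1 for the difference of pFUS effects, and the Fabp6 covariate gave 1 in DIO-stz intestine.

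In DIO-stz pancreas Reg1a turned to 0.43 with library totals, 0.28 with the acinar covariate and 0.50 without control 6, and Reg3b to 1.19, 1.79 and 2.17. For Diet Resistant against DIO-stz pancreas Reg3b turned to -0.47 with library totals, -1.13 with the compared groups only, -1.23 without a sex term or with the acinar covariate, and -0.99 without DIO-stz control 6. In obese intestine Reg3b turned to 0.0565 with the Fabp6 covariate, and Reg3g to -0.32 with library totals, -0.0084 without a filter, -0.00078 with the compared groups only and -0.37 without pFUS 7. With the Fabp6 covariate Reg1a turned to -0.49 for pFUS in lean rats, -0.58 for obese against lean controls and -0.84 in DIO-stz intestine, where it was -0.37 in males and -0.35 without libraries with ileal Fabp6. Leaving out single libraries gave, in obese pancreas, -0.37 to 0.0315 for Reg1a, -0.57 to 0.0483 for Reg3a and -0.63 to 0.16 for Reg3b. In DIO-stz pancreas it gave -1.69 to 0.50 for Reg1a and -2.03 to 2.17 for Reg3b, and for Diet Resistant against DIO-stz pancreas -0.80 to 0.64 and -0.38 to 3.39. It gave -0.37 to 0.76 for Reg3g in obese intestine and -0.36 to 1.99 for Reg1a in DIO-stz intestine.

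Over all genes, library totals called 1521 (39 higher) against 9 (6 higher) with TMM in obese intestine, with a median of -0.30 against -0.04, and 51 (28 higher) against 120 (46 higher) in DIO-stz pancreas. DESeq2 against edgeR called 21 and 7 genes in obese pancreas, 343 and 120 in DIO-stz pancreas, 556 and 9 in obese intestine, 18 and 1 in lean intestine, 149 and 2 for obese against lean controls, and 46 and 1 for the difference of pFUS effects. No paired analysis was possible because the groups compared share no animal number.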

Other observations

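Outside pancreas and intestine the Reg genes were close to absent. Over kidney, adipose tissue, muscle, brain, liver and blood, Reg1a had at least 10 counts in 1 library and Reg3a in none. Reg3b reached 9.13 CPM and Reg3g 5.55 CPM in obese control kidney 2, 2.78 and 3.02 CPM in DIO-stz control adipose 6, and Reg3b 1.88 CPM in obese control muscle 2. Fabp2, an enterocyte gene, was at 0 CPM in that kidney library and 0.785 CPM in that adipose library. In liver the highest Reg3b value was 0.174 CPM.

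In DIO intestine the ratio of Reg3b to Reg3g counts, read after its values were seen, was 1.26 and 0.701 in the 2 female and 4.18 and 4.20 in the 2 male DIO-stz controls. It was 3.14 in the female and 3.26 to 6.35 in the 4 male rats with pFUS, and 1.56 and 1.61 in the 2 female Diet Resistant rats. All 6 males were therefore above all 5 females. In the obese and lean rats, all male, the ratio ran from 1.05 to 4.60, and the difference between sexes was not tested.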
